A study of Mus musculus with 6 samples.

Results

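The genes of the AP-1 transcription factor family and their close companions among the immediate early genes were followed across a mouse hepatocellular carcinoma line and its migratory derivatives. Members were taken by symbol: every probe set whose platform annotation named Fos, Fosb, Fosl1, Fosl2, Jun, Junb, Jund, Egr1, Ier2 or Ier3 alone. This gave 14 probe sets for 10 genes, out of 45101 probe sets and 18193 genes in all. The parent was BL185, and from it the migratory subpopulations M1 and I1 had been selected, which the sample titles call subclone lines. All 3 lines were grown in DMEM with 10% FBS, no other agent is named, and each was measured on 2 arrays. Neither the genotype of the cells nor the age and sex of the animal of origin is stated in the labels. A subclone without selection was not part of the comparison, so selection and subcloning cannot be told apart. Nothing in the labels says that both arrays of a line stem from different cultures, and each p-value then measures the spread among arrays alone, which may be technical.

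AP-1 is a pair of basic leucine zipper proteins, most often a FOS protein joined to a JUN protein, that binds a short palindrome in promoters and enhancers. Some of its genes, among them Fos, Jun and Junb, and the zinc finger gene Egr1 are immediate early genes. Growth factors in serum, and many stresses, switch on their transcription within minutes through ERK, JNK and p38 kinases. No new protein synthesis is needed, and the transcripts decay quickly. In the liver the family is known for the response to partial hepatectomy, where Fos, Jun, Junb and Egr1 are among the first genes transcribed, and Jun is known for its role in hepatocyte survival and liver tumour formation.

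Expression is given as the deposited log2 signal of a probe set, so a difference of 1 is a doubling, and levels of different probe sets are not set against each other. The array medians lay between 7.87 and 8.11. M1 replicate 1 stood apart: the SD of its signals over probe sets was 1.62 against 1.83 to 1.97 on the other 5 arrays, and genes with a mean signal of 10 to 12 read a median of 1.02 lower on it than on M1 replicate 2. The control probe set for the 3′ end of 18S ribosomal RNA read 12.50 on that array against 10.69 on M1 replicate 2, 11.27 and 11.51 in I1, and 10.11 and 10.14 in BL185. Correlation between the arrays of a line, over all probe sets and as a description, was 0.997 in BL185, 0.994 in I1 and 0.91 in M1. The epithelial keratins Krt8 (14.95 ± 0.016 in BL185, SD, n = 2) and Krt18 (14.87 ± 0.0083) and the liver factor Hnf4a (12.87 in BL185) were high, but albumin was at 7.56 ± 0.047 in BL185, below the median of those arrays. Of 13 measured hepatocyte markers, 8 were above the median on every array.

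In the fit of all 6 arrays, with the brightest probe set standing for each gene, 0 of the 10 genes passed limma's test at a Benjamini-Hochberg adjusted p under 0.05 in any of the 3 contrasts. The background was small too, at 0.879% of all genes in M1 minus BL185, 0.511% in I1 minus BL185 and 0.0% in I1 minus M1. At an unadjusted p under 0.05, 0, 1 and 2 members passed in these contrasts, against 15.4%, 11.6% and 2.25% of all genes. The gene at that level in I1 minus BL185 was Egr1, and in I1 minus M1 they were Egr1 and Fos. By the arrays alone, Egr1, Fos, Ier2 and Ier3 read higher on both I1 arrays than on the other 4, which held for 4.09% of all genes. The same 4 members did so after cyclic loess (6.66% of all genes) and quantile normalization (7.05%). Leaving out M1 replicate 1 is no further check, because genes above all 4 other arrays stay above those that remain. Of all genes, 27.6% then did so. Egr1 and Fos were also the members whose mean was at least 1 log2 unit higher in I1 than in BL185, a size reached upward by 2.45% of all genes, and the same 2 genes passed that size in I1 minus M1, with 1.42% of all genes.

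**Figure D1:**
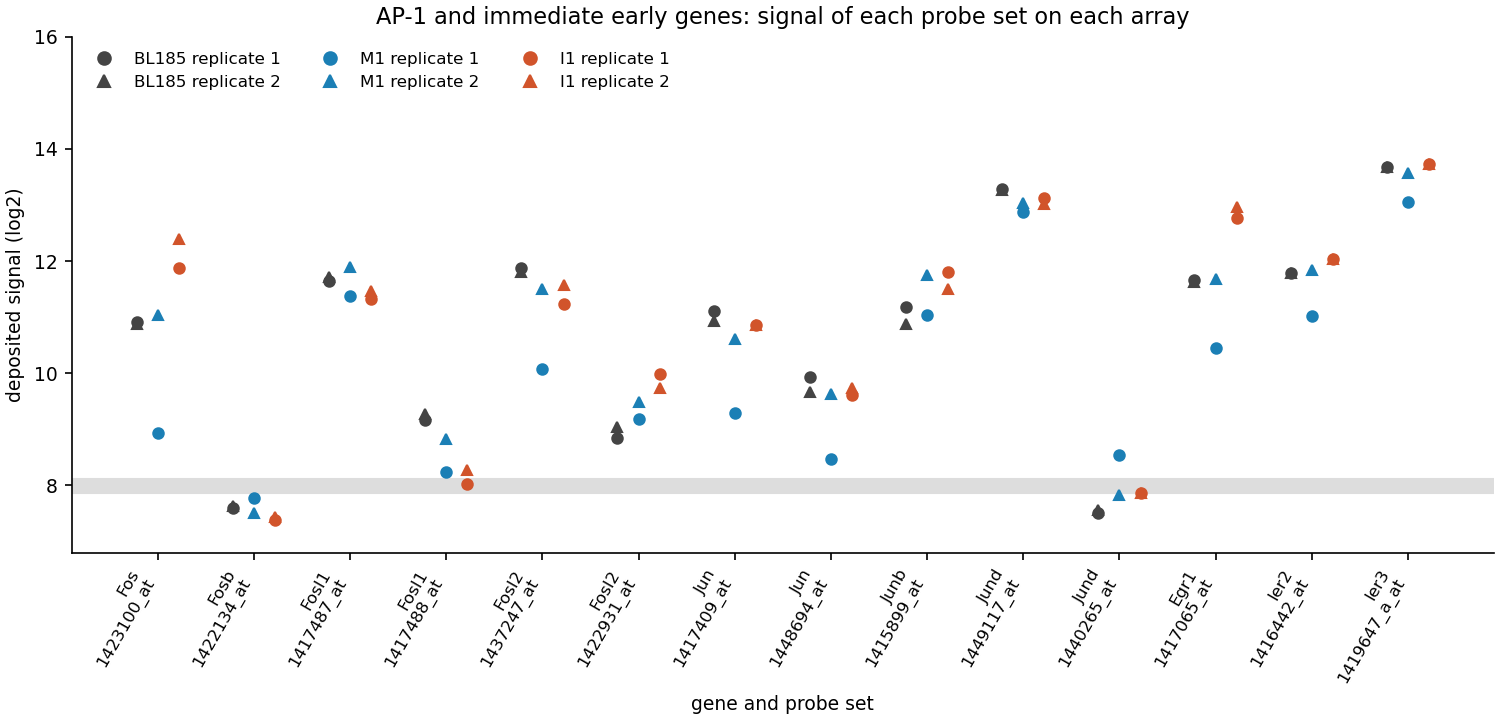
Deposited log2 signal (vertical axis) of each of the 14 probe sets (horizontal axis, by gene) on each of the 6 arrays; colour is the line, circles are replicate 1, triangles are replicate 2, and the grey band spans the 6 array medians, 7.87 to 8.11. Both I1 points are the highest for Fos, Egr1, Ier2, Ier3 and Fosl2 (1422931_at), and Fosb lies below the band throughout. M1 replicate 1 is the lowest point for Fos, Egr1, Jun, Ier2, Ier3, Fosl2 (1437247_at) and Jund (1449117_at).

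Fos, the founding partner of the JUN proteins in AP-1, had the widest span of line means among the members, 2.15 log2 units. Its promoter is shown because it carries letters recognised by factors that bring cAMP and calcium signals to the gene. The RefSeq promoter table (GRCm38.p6) held 7 of the 10 members, and the 250 bases before the Fos start lie on the plus strand at chr12:85473640-85473889, 5′ to 3′, with TGACG and TATAAA in capitals. TGACG is the core of the site of CREB and ATF proteins, and TATAAA is the TATA box.
Fos: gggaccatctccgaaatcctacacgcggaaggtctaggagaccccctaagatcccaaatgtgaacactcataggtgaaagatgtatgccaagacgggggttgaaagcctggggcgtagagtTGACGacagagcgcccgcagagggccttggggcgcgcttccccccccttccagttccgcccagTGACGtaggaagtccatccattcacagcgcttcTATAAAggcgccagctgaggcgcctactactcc
The TGACG matches begin 129 and 66 bases before the start and TATAAA begins 33 before it. Searched on both strands of windows of this length, TGACG was found in 17.8% of 32851 promoters and TATAAA in 12.4%. The CArG box bound by SRF and the AP-1 site TGANTCA had no match in the windows of the 7 members, against 1.47% and 6.75% of all promoters, which says only that these letters are not in these windows.

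The Fos signal was 10.91 and 10.87 (BL185), 8.93 and 11.04 (M1), and 11.88 and 12.40 (I1). Both I1 arrays were above all others, and the M1 arrays fell on either side of the BL185 arrays. In the fit of all 6 arrays the difference I1 minus BL185 was 1.25 ± 0.69 (SE, adjusted p = 0.593), a 2.38-fold higher mean, and I1 minus M1 was 2.15 ± 0.69 (adjusted p = 1.0). The difference M1 minus BL185 was -0.90 ± 0.69 (adjusted p = 0.479). This last value rested on M1 replicate 1: without that array, which leaves a lone M1 array, it was 0.16 ± 0.18, and I1 minus M1 was 1.10 ± 0.18. With the 4 arrays of BL185 and I1 fitted alone, the same Fos difference of 1.25 had an SE of 0.15 and an adjusted p of 1.2e-05, in a fit that called 46.6% of all genes.

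Fosb, a FOS protein with a strong activation domain that is transiently induced beside Fos, was near the floor. Its signal was 7.60 and 7.63 (BL185), 7.78 and 7.51 (M1), and 7.39 and 7.43 (I1). All 6 values were below the medians of their arrays. In the fit of all 6 arrays as deposited, no contrast exceeded 0.24 log2 units in size (adjusted p = 0.712 in I1 minus BL185 and 0.909 in M1 minus BL185). I1 minus BL185 was -0.36 after cyclic loess (limma adjusted p = 0.137) and -0.37 after quantile normalization (limma adjusted p = 0.14). No detection calls were used, so a signal at this level cannot be told apart from background.

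Fosl1 encodes FRA-1, a FOS-related protein without the strong activation domain of FOS that is often high in invasive carcinoma cells. On the brighter probe set (1417487_at) the signal was 11.65 and 11.72 (BL185), 11.38 and 11.90 (M1), and 11.32 and 11.47 (I1). The I1 arrays were lowest against the parent, but the M1 arrays overlapped both other lines. The difference I1 minus BL185 was -0.29 ± 0.23 (adjusted p = 0.691). The other probe set (1417488_at) read 9.16 and 9.27 (BL185), 8.25 and 8.83 (M1), and 8.03 and 8.27 (I1). Here BL185 was apart from and above both selected lines, while M1 and I1 overlapped. With every probe set in the fit, this second one was at -1.06 ± 0.24 in I1 minus BL185 (unadjusted p = 0.00698, adjusted p = 0.149), and the sizes on the 2 probe sets therefore differed more than the direction.

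Fosl2 encodes FRA-2, the other FOS-related protein, and its 2 probe sets disagreed in direction. The brighter one (1437247_at) read 11.87 and 11.81 (BL185), 10.07 and 11.51 (M1), and 11.24 and 11.57 (I1). On it BL185 was above both selected lines, whose arrays overlapped. On 1422931_at the signal was 8.85 and 9.04 (BL185), 9.19 and 9.49 (M1), and 9.98 and 9.73 (I1), with BL185 now lowest, I1 highest and no overlap between any of the lines. The differences I1 minus BL185 were -0.44 ± 0.48 (adjusted p = 0.724) and 0.91 ± 0.19 (unadjusted p = 0.00481, adjusted p = 0.131) in the fit of every probe set. In M1 minus BL185 the brighter probe set was at -1.05 ± 0.48 (adjusted p = 0.377) in the fit of 1 probe set per gene and at -0.34 ± 0.16 (adjusted p = 0.157) without M1 replicate 1. No direction is therefore given for Fosl2. Which transcripts each probe set reads was not tested.

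Jun, Junb and Jund supply the JUN side of AP-1: JUN is the strong activator that JNK phosphorylates, JUNB is a weaker activator that can hold JUN back, and JUND is expressed more steadily and is linked to quiescence. The promoters of Jun and Junb are shown beside that of Fos because JUN proteins with ATF2 act on the Jun promoter itself. The windows of 250 bases before the start lie on the minus strand, at chr4:95052223-95052472 for Jun and chr8:84978749-84978998 for Junb (GRCm38.p6, RefSeq), with TGACATCA, the variant AP-1 site, or TGACG in capitals.
Jun: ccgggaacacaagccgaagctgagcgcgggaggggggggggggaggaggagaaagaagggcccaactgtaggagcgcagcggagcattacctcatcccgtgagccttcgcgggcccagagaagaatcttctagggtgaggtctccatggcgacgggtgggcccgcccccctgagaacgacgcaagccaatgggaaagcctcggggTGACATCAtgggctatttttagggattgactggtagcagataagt
Junb: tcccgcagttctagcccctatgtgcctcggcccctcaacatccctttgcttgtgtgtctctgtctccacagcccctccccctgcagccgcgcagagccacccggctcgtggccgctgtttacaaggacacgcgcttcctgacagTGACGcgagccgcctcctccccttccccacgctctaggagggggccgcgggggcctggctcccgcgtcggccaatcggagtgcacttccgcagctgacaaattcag
In Jun the 8 bases TGACATCA begin 45 bases before the start, a sequence found on either strand in 2.93% of promoters and sharing no match with TGACG. In Junb, TGACG begins 106 bases before the start, and in Fosb 60 before it. A match is a description of the letters only.

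Jun (1417409_at) read 11.11 and 10.94 (BL185), 9.29 and 10.61 (M1), and 10.86 and 10.87 (I1). The order was BL185, I1, M1, and no line's arrays overlapped another's, although BL185 and I1 lay close together. The difference M1 minus BL185 was -1.07 ± 0.44 (adjusted p = 0.339) and I1 minus BL185 was -0.16 ± 0.44 (adjusted p = 0.891). Most of the former came from M1 replicate 1: without it the difference was -0.41 ± 0.14 (adjusted p = 0.0482), in a fit that called 24.0% of all genes. The second Jun probe set (1448694_at) read 9.93 and 9.67 (BL185), 8.47 and 9.64 (M1), and 9.61 and 9.74 (I1). On it both M1 arrays were again below both BL185 arrays, but M1 replicate 2 lay within the range of I1 and barely below BL185.

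Junb read 11.18 and 10.87 (BL185), 11.04 and 11.76 (M1), and 11.81 and 11.51 (I1). Both I1 arrays were above both BL185 arrays, and the M1 arrays overlapped both other lines. The difference I1 minus BL185 was 0.63 ± 0.30 (adjusted p = 0.533) with all 6 arrays and 0.63 ± 0.14 (adjusted p = 0.00201) with the 4 arrays of these lines. The latter fit called 46.6% of all genes. M1 minus BL185 was 0.37 ± 0.30 (adjusted p = 0.494), and without M1 replicate 1, which leaves a lone M1 array, it was 0.73 ± 0.17.

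Jund (1449117_at) was at 13.28 and 13.26 (BL185), 12.87 and 13.03 (M1), and 13.12 and 13.02 (I1). BL185 was apart from and above both selected lines by small amounts, -0.32 ± 0.17 in M1 (adjusted p = 0.418) and -0.20 ± 0.17 in I1 (adjusted p = 0.702). The dim probe set (1440265_at) went the other way, at 7.51 and 7.57 (BL185), 8.54 and 7.82 (M1), and 7.85 and 7.86 (I1). Its values lay within a log2 unit of the array medians and no direction is given for it.

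Egr1 encodes a zinc finger factor that serum and stress induce through SRF and the ternary complex factors, and its I1 arrays stood far above the rest. Its signal was 11.65 and 11.63 (BL185), 10.46 and 11.68 (M1), and 12.76 and 12.96 (I1). Both I1 arrays were more than 1 log2 unit above every other array, and M1 replicate 2 was level with the parent. The line means were 11.64 ± 0.015, 11.07 ± 0.87 and 12.86 ± 0.14 (SD, n = 2). I1 minus BL185 was 1.22 ± 0.41, a 2.32-fold higher mean (unadjusted p = 0.0302, adjusted p = 0.351). I1 minus M1 was 1.79 ± 0.41 (unadjusted p = 0.00663, adjusted p = 1.0), and without M1 replicate 1, which leaves a lone M1 array, it was 1.18 ± 0.14. After cyclic loess between the arrays, which removes differences that depend on signal level, Egr1 was called in both contrasts: 1.40 ± 0.14 in I1 minus BL185 (adjusted p = 0.0102, background 8.7%) and 1.54 ± 0.14 in I1 minus M1 (adjusted p = 0.0469, background 0.286%). With only the BL185 and I1 arrays, the 1.22 had an SE of 0.12 and an adjusted p of 1.63e-06, in a fit that called 46.6% of all genes. M1 minus BL185 was -0.58 ± 0.41 (adjusted p = 0.463) and 0.037 ± 0.14 (adjusted p = 0.921) without M1 replicate 1.

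Ier2 and Ier3 are immediate early genes outside the AP-1 family; IER2 is a small nuclear protein, and IER3 is induced by NF-kB and ERK signals and modulates cell survival. Ier2 read 11.79 and 11.78 (BL185), 11.02 and 11.84 (M1), and 12.03 and 12.03 (I1). The I1 arrays were above all others by a small step, and M1 spanned BL185. I1 minus BL185 was 0.25 ± 0.30 (adjusted p = 0.762), and 0.25 ± 0.11 (adjusted p = 0.0833) with the arrays of those lines alone. Ier3 read 13.68 and 13.68 (BL185), 13.05 and 13.56 (M1), and 13.73 and 13.73 (I1). The lines did not overlap, in the order I1, BL185, M1, but the step from BL185 to I1 was 0.053 ± 0.22 (adjusted p = 0.932). M1 minus BL185 was -0.37 ± 0.22 (adjusted p = 0.437), and -0.12 ± 0.14 (adjusted p = 0.673) without M1 replicate 1.

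**Figure D2:**
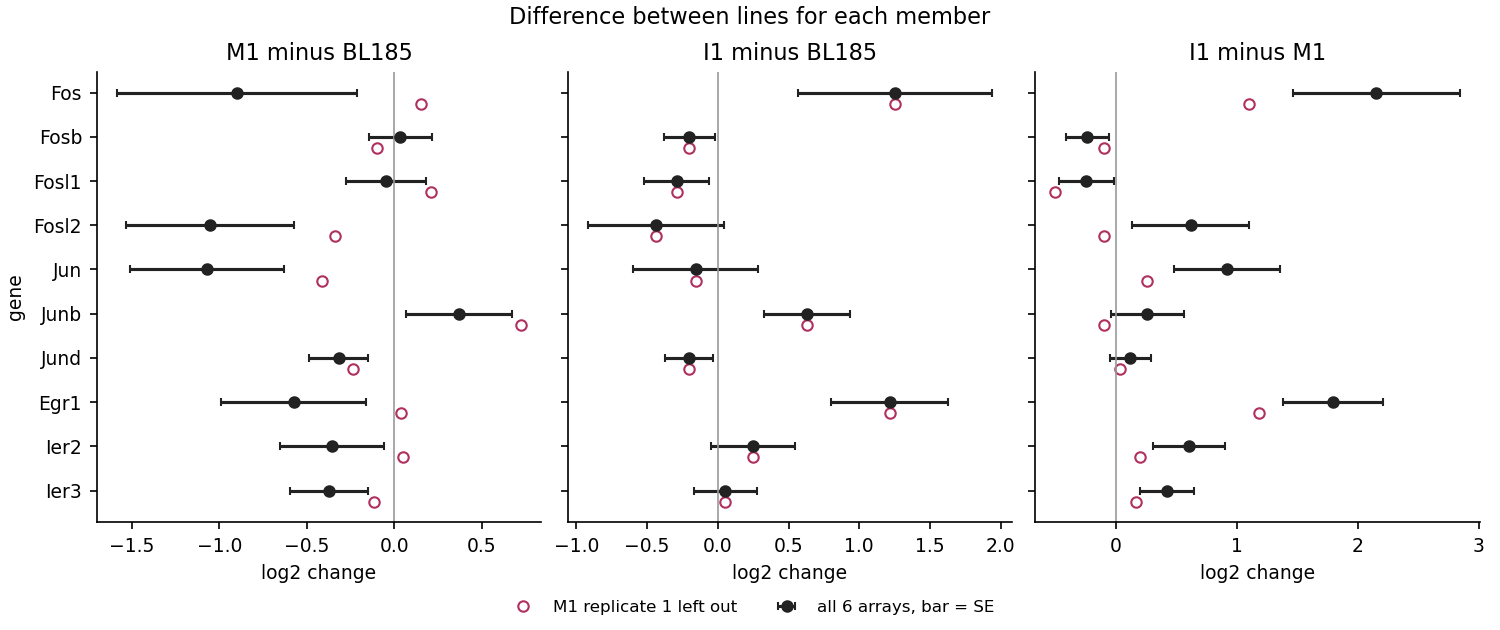
Difference between lines in log2 units (horizontal axis) for each member (vertical axis) in 3 contrasts; filled points with SE bars are the fit of all 6 arrays and open points are the values with M1 replicate 1 left out. In M1 minus BL185 the open points of Fos and Egr1 move to 0.16 and 0.037, and in I1 minus M1 those of Fos and Egr1 are at 1.10 and 1.18.

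Taken by comparison, I1 against its parent divided the members. On the probe set used for each gene, all 10 had arrays that did not overlap between I1 and BL185, with 5 higher (Fos, Egr1, Junb, Ier2 and Ier3) and 5 lower (Fosb, Fosl1, Fosl2 on 1437247_at, Jun, and Jund on 1449117_at), but so did 76.0% of all genes (42.6% higher and 33.5% lower). With the 4 arrays of these lines alone, 4 of 10 passed limma's adjusted p under 0.05, against 46.6% of all genes. Fos, Egr1 and Junb were higher (22.5% of all genes) and Fosl2 (1437247_at) was lower (24.1%). A share of 4 in 10 is near the background. The other probe sets of Fosl2 and Jund were higher and apart in I1, by 0.91 and 0.32. The median difference of the 10 members was -0.052, and that of all genes was 0.059.

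Against the parent and on the probe set used for each gene, M1 had 4 members with arrays lower and apart (Fosl2, Jun, Jund and Ier3), 0 higher and 6 overlapping, where 51.9% of all genes did not overlap (25.7% lower and 26.2% higher). The other probe sets of Fosl2 and Jund were higher and apart in M1, by 0.40 and 0.64, so no direction is read for these genes. The members' median was -0.37 against 0.067 for all genes. Genes of like brightness were lower too: those with a mean signal of 10 to 12 had a median of -0.50 in M1 minus BL185 and -0.22 in I1 minus BL185, and 7 of the 10 members lie in that range. Without M1 replicate 1, the members' median in M1 minus BL185 was -0.031, and 2 members were called, Jun lower and Junb higher, against 24.0% of all genes. With cyclic loess on the same 5 arrays the Jun call was lost (adjusted p = 0.0551).

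Between the selected lines, on the probe set used for each gene, 5 members were higher in I1 with arrays apart (Fos, Jun, Egr1, Ier2 and Ier3). Fosb, near the floor, was the 1 lower member and 4 overlapped, against 16.1% of all genes apart, 8.13% higher and 7.96% lower. On the other probe sets Fosl2 was higher and apart, by 0.52, and Jun, Fosl1 and Jund overlapped. The members' median was 0.51 against -0.0021 for all genes and 0.25 for genes with a mean signal of 10 to 12. Without M1 replicate 1 it was 0.10, and 3 members were called, Egr1 and Fos higher and Fosl1 lower, in a fit that called 20.6% of all genes. With cyclic loess on the same 5 arrays Egr1 and Fos were called again, Fosl1 was not (-0.29 ± 0.11, adjusted p = 0.124), and Jun was called higher (0.48 ± 0.12, adjusted p = 0.0422). The part of the difference between the M1 arrays that reflects their RNA was not tested. The contrasts share arrays, so their values are not independent of each other.

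**Figure D3:**
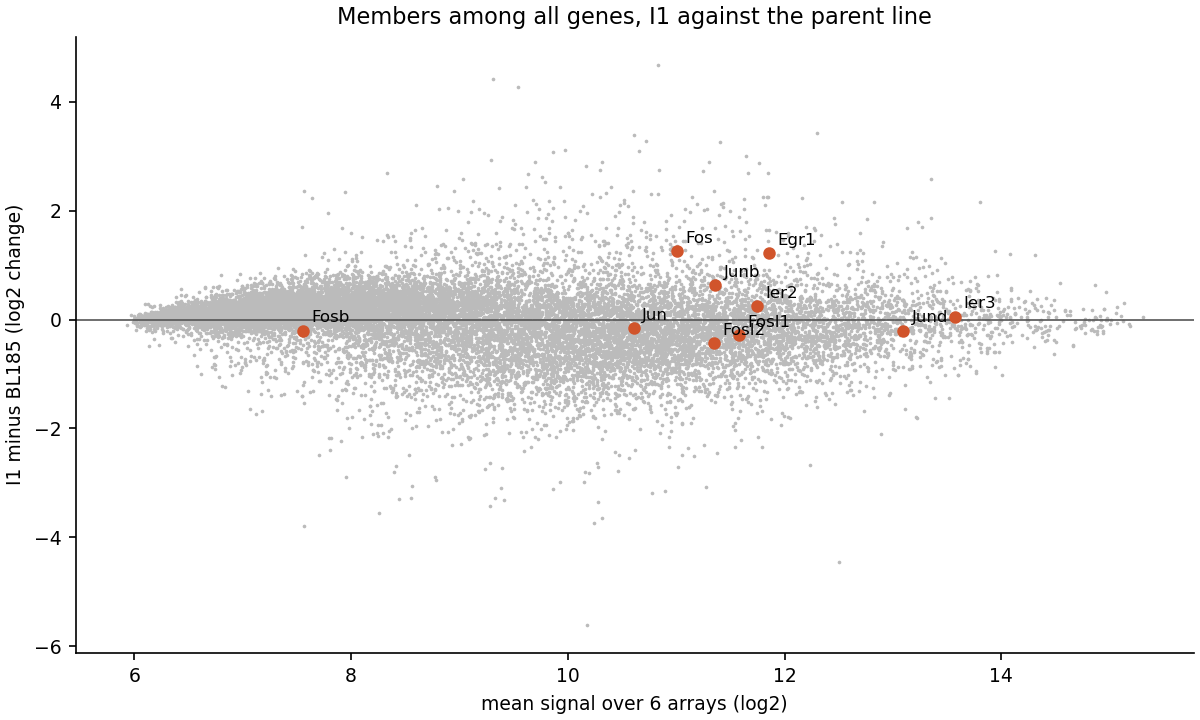
Difference I1 minus BL185 in log2 units (vertical axis) against the mean signal over 6 arrays (horizontal axis) for all 18193 genes in grey, with the 10 members in orange. Egr1 (1.22) and Fos (1.25) lie above most genes of like brightness, and Jun (-0.16), Jund (-0.20) and Ier3 (0.053) lie near 0.

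The other genes of the pathway were taken from 7 lists with 163 measured genes. In the fit of all 6 arrays, 6 of them were called in M1 minus BL185, 4 in I1 minus BL185 and 0 in I1 minus M1, where 0.879%, 0.511% and 0.0% of all genes were called. Without any 1 of the BL185 or I1 arrays no gene was called against the parent, in these lists or among all genes. Without M1 replicate 1 more were called, again both in these lists and among all genes. Each of these fits leaves a lone array for 1 line, so their calls are not read as a result about the pathway. Among 20 measured dimer partners and other leucine zipper factors, 1 gene passed in each selected line and 0 rose. It was Ddit3 (CHOP), a stress-induced C/EBP factor, which read 13.21 and 13.14 (BL185), 10.12 and 10.35 (M1), and 10.69 and 10.76 (I1). It fell by 2.94 ± 0.18 in M1 (adjusted p = 0.0121) and by 2.45 ± 0.18 in I1 (adjusted p = 0.0262). Its arrays were far apart between the parent and both selected lines. The list's median was -0.97 in M1, or -0.36 without M1 replicate 1, and -0.53 in I1. After cyclic loess the medians were -0.63 in M1 and -0.49 in I1. In each line 7 of the 20 were then called lower and 0 higher, where 10.0% and 8.7% of all genes were called. Atf3, which is itself induced early and by stress, was chosen after its values were seen. It was at -2.39 ± 0.40 in M1 (adjusted p = 0.0779) and -1.96 ± 0.40 in I1 (adjusted p = 0.15). After cyclic loess limma called it in both, at -1.93 ± 0.13 (adjusted p = 0.00274) and -1.75 ± 0.13 (adjusted p = 0.00475).

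Of the 43 other immediate and delayed early genes, all measured, 1 fell in M1 and 0 passed in I1. Of all genes, 0.879% and 0.511% were called in these contrasts. The gene was Nr4a1, an orphan nuclear receptor induced by growth factors, at 11.62 and 11.61 (BL185), 10.18 and 10.35 (M1), and 10.26 and 10.30 (I1). Both selected lines lay more than 1 log2 unit below the parent. The change in M1 was -1.35 ± 0.17 (adjusted p = 0.0466), a call lost after cyclic loess (adjusted p = 0.13), and in I1 it was -1.33 ± 0.17 (adjusted p = 0.0595). In I1, 14 of these genes had arrays apart and above those of BL185, 19 were apart and below, and 42.6% and 33.5% of all genes did so. Gadd45a at the low end and Ccn1 at the high end were chosen after their values were seen. Gadd45a, a stress and growth arrest gene, read 12.89 and 13.07 (BL185), 7.63 and 9.58 (M1), and 9.21 and 9.48 (I1), with adjusted p = 0.0609 in M1 and 0.11 in I1. Ccn1, a matrix protein gene induced by serum, read 11.57 and 11.51 (BL185), 12.01 and 12.70 (M1), and 12.78 and 12.74 (I1) (adjusted p = 0.27 in M1 and 0.17 in I1). After cyclic loess, 3 genes of the list were called higher and 10 lower in M1 (10.0% of all genes called), and 3 higher and 11 lower in I1 (8.7% of all genes). The list's median was -0.40 in M1 minus BL185 and -0.040 in I1 minus BL185. It had no stable direction: in M1 it was 0.050 without M1 replicate 1 (23 of 43 genes positive) and -0.12 after cyclic loess, and in I1 it was 0.0076 after cyclic loess.

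**Figure D4:**
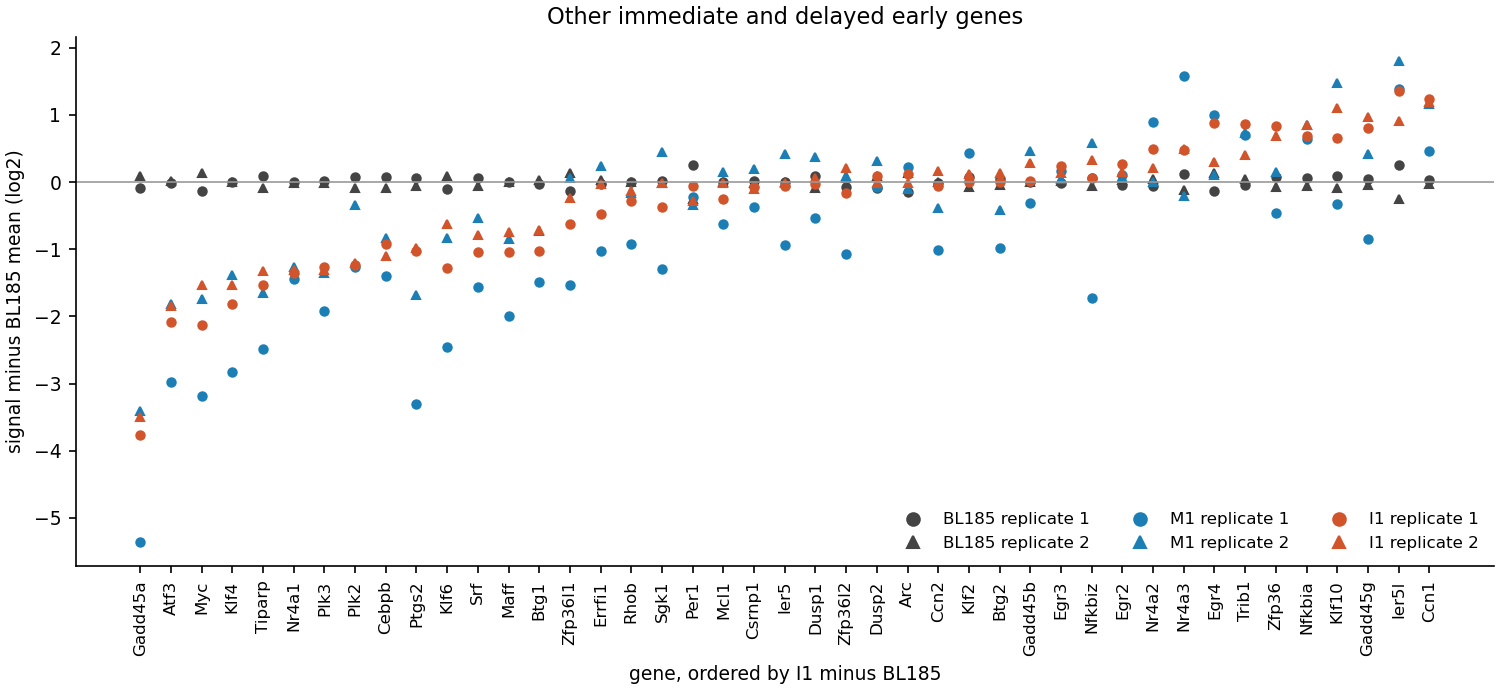
Signal of each of the 43 other early genes on each array minus its BL185 mean, in log2 units (vertical axis), with genes ordered by I1 minus BL185 (horizontal axis); colours are lines, circles replicate 1 and triangles replicate 2. Genes from Gadd45a to Btg1 lie below 0 in both selected lines, Ccn1, Ier5l and Nfkbia lie above 0 in both, and M1 replicate 1 is often the lowest point.

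Upstream of the early genes, 0 of 16 activators around SRF, the ternary complex factors and CREB passed in either selected line, with medians of -0.78 in M1 and -0.62 in I1. After cyclic loess these medians were -0.33 and -0.46, with 14 and 15 of the 16 genes negative, and all genes were at 0.0091 and 0.0115. Without M1 replicate 1 the median in M1 was -0.27. Likewise 0 of 32 measured ERK, JNK and p38 pathway genes passed, with medians of -0.42 and -0.23, and -0.14 and -0.055 after cyclic loess. Of 21 feedback and output genes of ERK, 0 passed, with medians of -0.42 and -0.40, and -0.19 and -0.28 after cyclic loess. Without M1 replicate 1 the M1 medians of these last lists were -0.098 for the kinases and 0.011 for the feedback genes. Among 13 AP-1 co-factors and turnover factors, 1 fell in M1 and 0 in I1, where 0.879% and 0.511% of all genes were called. It was Gsk3b, a kinase that marks JUN for degradation, which read 12.40 and 12.48 (BL185), 9.71 and 10.44 (M1), and 11.00 and 10.67 (I1). It fell by 2.37 ± 0.29 in M1 (adjusted p = 0.0466).

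Genes with a described AP-1 response moved both ways. Of 25 measured, 2 rose and 1 fell in M1, and 3 rose and 0 fell in I1. Of all genes, 0.275% were called higher and 0.605% lower in M1, and 0.192% and 0.319% in I1. The list was chosen with earlier results of these data known, so its counts are not read as a result about AP-1. Ccl2, a chemokine for monocytes, read 7.98 and 7.73 (BL185), 11.55 and 12.35 (M1), and 10.54 and 10.82 (I1). It rose by 4.09 ± 0.31 in M1 (adjusted p = 0.0184) and 2.82 ± 0.31 in I1 (adjusted p = 0.0461). Timp1, an inhibitor of matrix metalloproteinases, read 10.17 and 10.09 (BL185), 11.69 and 12.23 (M1), and 12.19 and 12.22 (I1). It rose by 1.83 ± 0.23 (adjusted p = 0.0469) and 2.07 ± 0.23 (adjusted p = 0.0461). Both genes were higher in each selected line than in the parent, with no overlap. Krt14, a basal keratin, read 7.56 and 7.62 (BL185), 8.90 and 9.43 (M1), and 11.89 and 11.83 (I1), and rose by 4.27 ± 0.23 in I1 (adjusted p = 0.019). Ereg, an EGF receptor ligand, read 12.27 and 12.26 (BL185), 7.39 and 8.94 (M1), and 9.01 and 9.31 (I1), and fell by 4.10 ± 0.51 in M1 (adjusted p = 0.0466). The list's median was -0.14 in M1 and -0.11 in I1, but 0.077 and 0.082 after cyclic loess, 0.12 and 0.10 after quantile normalization, and 0.090 in M1 without M1 replicate 1.

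The marker lists of other cell types were measured beside the members. The log2 of the summed signal of 11 macrophage and leukocyte markers was 12.77 to 12.81 in BL185, 12.63 to 12.75 in M1 and 12.83 to 12.97 in I1, with 5 of the 11 above the array median throughout. Its brightest gene was Cd14, at 11.21 in BL185, 11.19 in M1 and 11.98 in I1. The sums thus ran I1, BL185, M1, as for Egr1 and Fos. With all 6 arrays, single markers did not follow this order. Of the 11, 8 were higher in M1 than in BL185 (median 0.47) and 7 were lower in I1 than in M1 (median -0.12). Without M1 replicate 1 these medians were 0.022 and 0.29. Then 7 of the 11 were higher in M1 than in BL185, and 0 were lower in I1 than in M1. For 7 bile duct and progenitor markers the sums were 15.82 to 15.87 in BL185, 15.42 to 15.71 in M1 and 15.85 to 15.96 in I1, with the top of BL185 overlapping I1, and 4 of the 7 were above the medians. In the fit of all 6 arrays, Sox9 and Prom1 among these were called lower in M1 and Prom1 in I1. That fit called 0.879% and 0.511% of all genes in these contrasts. For 12 stellate cell and fibroblast markers the sums were 11.52 to 11.61, 11.70 to 12.13 and 11.83 to 11.91, and for 10 endothelial markers 11.31 to 11.43, 11.48 to 11.60 and 11.46 to 11.61, with 4 and 2 genes above the medians. Among the leukocyte markers, Cd68 was called lower in both selected lines and Cd53 in M1, in the fit of all 6 arrays. Of the 13 hepatocyte markers, 1 was called lower in M1 and 0 in I1. The leukocyte gene Ptprc was at 6.25 in BL185, 6.72 in M1 and 6.66 in I1, below the array medians in each. Whether cells of these types were present, and any part of theirs in the differences of the members, was not tested. In RNA from a whole culture, fewer cells of a type and less RNA per cell cannot be told apart.

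Genes whose signals followed a member most closely over the 6 arrays were sought among 2713 genes with line means spanning at least 1 log2 unit, for the 4 members that span as much. For Fos these were Ndfip1 (Pearson r = 0.997) and Epb41l4b (0.996), and for Egr1 they were Tmigd1 (0.994) and Acss2 (0.993). Tmigd1 read 10.14 and 9.91 (BL185), 7.73 and 9.62 (M1), and 12.10 and 12.59 (I1), so it shared with Egr1 the high I1 arrays and the low M1 replicate 1. For Jun they were Chac2 (0.996) and Arnt (0.995), and for Fosl2 (1437247_at) Mtmr9 (0.999) and Bloc1s5 (0.999). With 6 arrays in 3 lines and a shared low value on M1 replicate 1, such correlations describe these arrays only.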

How the data were processed

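Total RNA, isolated with Trizol from 3 lines on 2 arrays each, was labelled with biotin by a 3′ IVT kit, per the labels' protocols. Values deposited by the authors are log2 signals of probe sets, made with RMA and affy per the submitters' processing notes. No version or setting is given in the sources used here, and the log2 scale was read from the range of the values, 5.80 to 15.4. Of 45101 probe sets, 34945 named 1 gene, 932 named several, 64 were controls and 9160 named none, and 34741 were matched by Entrez identifier to RefSeq genes of GRCm38.p6. Genes without a probe set of their own were not analysed here.

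The probe set with the highest mean stood for a gene. A model with 1 mean for each line was fitted to the 6 arrays in limma 3.58.1 (R 4.3.3; 3 residual and 2.27 prior degrees of freedom), with eBayes and Benjamini-Hochberg adjustment over 18193 genes within each of 3 contrasts, at a threshold of 0.05. The fit of the BL185 and I1 arrays alone had 2 residual and 11.6 prior degrees of freedom. Scripts were tested on simulated data. An exact permutation test of 2 arrays against 2 cannot go below p = 0.333, so none was used. The members and lists were chosen with earlier results of these data known. Named were all members, up to 4 called genes per list and contrast, and for members spanning at least 1 log2 unit the 2 most alike genes. Replicate numbers from the titles were not used to pair the arrays. The differences between replicates 1 and 2 correlated at -0.13 (BL185 and M1), 0.16 (BL185 and I1) and 0.37 (M1 and I1). Whether arrays of the same number shared a batch was not tested. The alternatives are given in the closing section. Precision is limited by having 2 arrays per line, and no detection calls were used.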

Additional observations from a re-analysis of the deposited data

Results flagged for a closer look

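Ier3, the survival gene induced early by NF-kB and ERK signals, differed from the parent in opposite directions in the selected lines: both M1 arrays read below both BL185 arrays and both I1 arrays read above them. The difference I1 minus M1 was 0.42 ± 0.22 log2 units, and limma's test of it did not pass (adjusted p = 1.0). The I1 side of this pattern was 0.053 ± 0.22. Without M1 replicate 1 the difference between the selected lines was 0.17 ± 0.14 (adjusted p = 0.416).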

How the results depend on the processing

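With 2 arrays per line, and the difference between the M1 arrays in the pooled spread, counts of calls depended strongly on the setting. Leaving out either M1 array raised them. No detection calls were used, so dim signals have no lower bound. Counts given in threes are for M1 against BL185, I1 against BL185 and I1 against M1. All 6 arrays gave 0, 0 and 0 members called, 160, 93 and 0 genes, and 6, 4 and 0 of the 163 pathway genes. Leaving out 1 array at a time gave 0 to 7, 0 to 4 and 0 to 8 members, 0 to 12879, 0 to 8481 and 0 to 10365 genes, and 0 to 132, 0 to 107 and 0 to 114 pathway genes. The high ends came from fits without an M1 array, where the lone M1 array is taken to vary as the other lines do.

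Cyclic loess gave 0, 1 and 1 members, 1820, 1582 and 52 genes, and 39, 37 and 3 pathway genes. Quantile normalization gave 0, 1 and 0 members, 1170, 980 and 4 genes, and 26 and 22 pathway genes against the parent. Array weights gave 5 members in I1 minus BL185, 312, 8551 and 2 genes, and 15 and 106 pathway genes. Only the arrays of the lines compared gave 4 members in I1 minus BL185, 0 and 8481 genes, and 0 and 107 pathway genes. The replicate number as a block, with any pairing unknown, gave 0 members in each contrast, 38, 1 and 0 genes, and 2 and 0 pathway genes. Adjustment over the 3 contrasts together gave 94 genes in M1 minus BL185 and 13 in I1 minus M1, and 2, 2 and 1 pathway genes. An adjusted p of 0.01 left 5 and 3 genes and 0 and 0 pathway genes. Against the parent, robust eBayes gave 2 and 2 pathway genes. Median centring gave 241 genes and 11 pathway genes in M1, and the mean of probe sets gave 338 and 12. Testing every probe set gave 154 genes in I1, and a mean of at least 8, which drops Fosb, gave 1 gene in I1 minus M1. Chosen after seeing the data, cyclic loess without M1 replicate 1 gave 1 (Junb), 5 (Fos, Egr1, Junb, Ier2 and Fosb) and 3 (Egr1, Fos and Jun) members, 4616, 7576 and 2597 genes, and 70, 97 and 28 pathway genes.

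Some differences of members changed sign. In M1 minus BL185, leaving out 1 array at a time gave -1.95 to 0.16 for Fos, -1.19 to 0.037 for Egr1, -0.77 to 0.050 for Ier2, -0.31 to 0.21 for Fosl1 and -0.099 to 0.17 for Fosb. With M1 replicate 1 left out and cyclic loess, these were 0.17, 0.032, 0.051, 0.22 and -0.14. With all arrays after cyclic loess and quantile normalization, Fosb was at -0.21 and -0.17, Fosl1 at 0.41 and 0.38, and Ier2 at 0.087 and 0.063. In I1 minus BL185, Jun was at 0.076 and 0.10 after these normalizations, and at 0.088 after loess without M1 replicate 1. The mean of probe sets put Jund at 0.16 in M1 minus BL185, 0.058 in I1 minus BL185 and -0.10 in I1 minus M1, and Fosl2 at 0.24 in I1 minus BL185. In I1 minus M1, Jund was at -0.073 after loess and -0.037 after quantile normalization, and Junb at -0.0038 after loess. Leaving out 1 array at a time gave -0.10 to 1.33 for Fosl2, -0.097 to 0.62 for Junb and -0.50 to 0.014 for Fosl1 in that contrast. The directions of Fos and Egr1 in I1 minus BL185 and I1 minus M1 held under all settings run.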
